A study of Mus musculus with 4 samples.

Results

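Runs of closely spaced ERG peaks were described in leukemia 1, 1 of 2 mouse leukemias in which ERG binding was mapped by chromatin immunoprecipitation followed by sequencing (ChIP-seq). A run was a group of 3 or more peaks of the leukemia 1 list on a chromosome in which no gap between the centres of neighbouring peaks exceeded a fixed joining distance. The widest gap that this distance admitted to a run was 12483 bp, and the narrowest that it kept out of one was 12603 bp. This rule gave 110 runs with 360 of the 5738 peaks of that list (6.27%). The experiment used formaldehyde-fixed spleen cells of C57BL6 mice, and its 4 samples are an ERG and a control rabbit IgG immunoprecipitation from each leukemia. The label of leukemia 1 is transgenic and that of leukemia 2 is transgenic GATA1s. Both carry TgERG, the ERG transgene, in their titles, so neither is a sample without it. The antibody is polyclonal and raised against ERG-1/2/3. Each leukemia has 1 ERG library, no value below has a replicate, and no p-value was computed. The sources used here do not give the age of the mice, the promoter of the transgene or the share of leukemic cells in the spleens. The lists hold positions only, so the cell type could not be checked against markers. The lists also do not separate the product of the transgene from the ERG of the mouse.

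ERG belongs to the ETS family of transcription factors, whose members bind DNA elements with a GGAA core. In blood stem cells and megakaryocytes it acts together with other factors, among them members of the GATA and RUNX families, and regulatory regions that several such factors occupy often lie in groups around the genes they control. Joining neighbouring sites by a fixed distance is a usual first step in finding such groups of enhancers. GATA1s is the usual name of a short form of GATA1, a regulator of red cells and megakaryocytes, that lacks the N-terminal activation domain. Positions below are on the mouse build mm9, counted from 1, and run from the first base of the first peak to the last base of the last peak. No genes or sequences are given for the runs, since the gene and promoter tables at hand are for another build.

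The positions of the leukemia 1 peaks chose the runs, so their number, length and spacing are a description. The runs had 3 peaks in 88 cases, 4 in 15, 5 in 6 and 6 in 1. Their median length was 13.0 kb, with quartiles of 9.21 and 17.0 kb and extremes of 2.64 and 31.9 kb. Most runs were thus triples, which spanned a median of 12.4 kb. The median was 17.6 kb for runs of 4 peaks and 24.1 kb for the 7 runs of 5 or more. Neighbouring centres within runs lay a median of 5.53 kb apart (250 gaps, quartiles 2.49 and 8.65 kb, smallest 0.58 kb). In the 536 pairs of leukemia 1 peaks that had no further neighbour the median gap was 5.62 kb. Gaps were spread over most of the allowed range, with few under 1 kb. Of the 250 gaps, 4 were under 1 kb, 46 lay at 1 to 2 kb, 45 at 2 to 4 kb and 45 at 4 to 6 kb. A further 33 lay at 6 to 8 kb, 35 at 8 to 10 kb and 42 beyond 10 kb. Spacing within a run was mostly uneven. The largest gap of a run was a median of 2.16 times its smallest and up to 11.9 times, and 43 of the 110 runs held a gap under 2 kb, while 5 had every gap under 2 kb.

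Runs were found on all 20 chromosomes with peaks. Chromosome 11 held 22 of them, with 75 peaks, which were 13.4% of its 561 peaks. Chromosome 8 followed with 10 runs and 9.90% of its 313 peaks, and chromosomes 5 and 7 had 8 runs each. Chromosomes 16 and X had 1 run each, and the share of peaks in runs was lowest on chromosome 16, at 1.57% of 191 peaks. A few runs were neighbours of each other: chr11:96796354-96809563 and chr11:96839004-96854664 were 29.4 kb apart, chr8:87183729-87188274 and chr8:87223806-87227705 were 35.5 kb apart, and chr11:100869367-100872126 and chr11:100943731-100956970 were 71.6 kb apart. These 3 couples of runs were the closest, and 23 couples of neighbouring runs lay within 1 Mb.

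**Figure D1:**
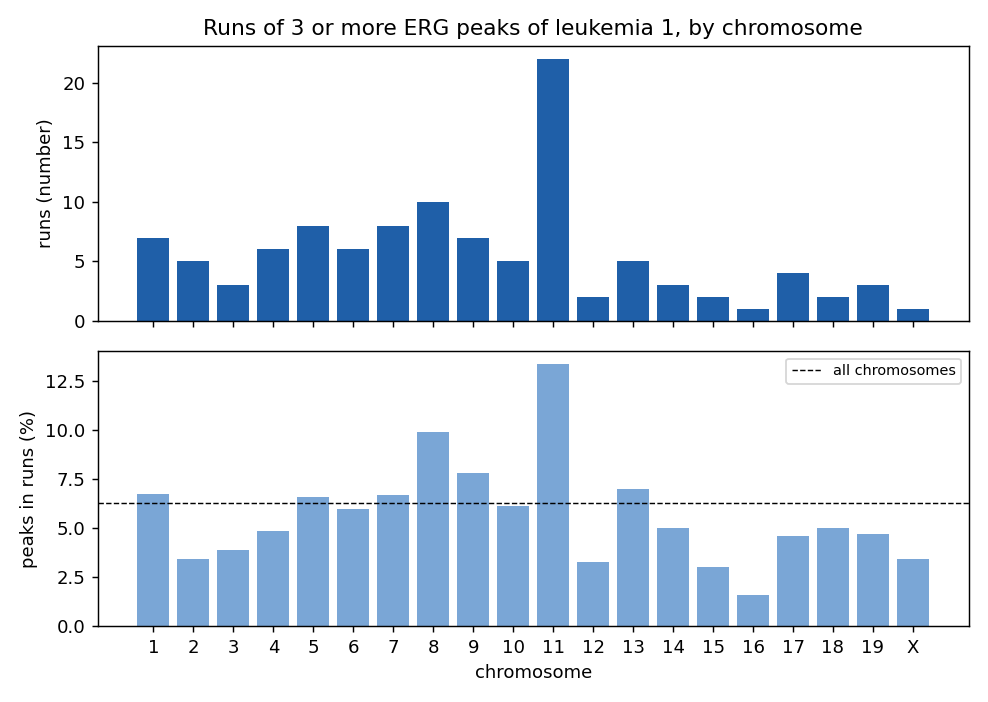
Number of runs of 3 or more leukemia 1 ERG peaks on each chromosome (upper bars) and the percentage of the leukemia 1 peaks of that chromosome that lie in runs (lower bars; dashed line, 6.27% over all chromosomes). Chromosome 11 stands highest in both, with 22 runs and 13.4% of its peaks, and chromosome 16 lowest in the percentage, with 1.57%.

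The joining distance lay within a continuous range of gaps. Just inside it, chr3:146345424-146363525 was held together by a gap of 12483 bp and chr2:31971227-31993790 by one of 12349 bp, and 8 runs had a widest gap over 12 kb. Just outside it, a pair of peaks and a further pair at chr1:183783130-183812064 were 12603 bp apart and so formed no run, and a pair and a single peak at chr8:35160426-35183834 were 12610 bp apart. Gaps of up to 13 kb that would have made or extended a run numbered 12, of which 8 would have made a new run.

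Overlap with the leukemia 2 list was not used to choose the runs. Shared run peaks are those that overlap a leukemia 2 peak by 1 bp or more. As every interval is 400 bp wide, the centres of shared peaks are under 400 bp apart. Of the 360 run peaks 198 were shared, or 55.0% (95% Wilson interval 49.8 to 60.1), against 55.8% of all 5738 leukemia 1 peaks. Peaks in pairs were shared in 53.5% of cases (50.6 to 56.5, 574 of 1072) and peaks with no neighbour within the joining distance in 56.4% (54.9 to 57.9, 2429 of 4306). ERG peaks in runs were therefore found in leukemia 2 at a share close to the background, and the interval allows a difference of several percentage points either way. All Wilson intervals here cover counting error only, since neighbouring peaks of a library are not replicates. The read depth and the calling threshold of the libraries are unknown, so a peak absent from the leukemia 2 list cannot be read as an unbound site.

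Most runs were found in leukemia 2 in part. At least 1 peak was shared in 100 of the 110 runs. Of all 5738 leukemia 1 peaks 55.8% were shared. At that share, groups of unrelated peaks would also often be shared in part. The counts of this paragraph are therefore not read as a trait of the runs, and a difference from the background was not tested. Every peak was shared in 18 runs (16.4%, 10.6 to 24.4) and none in 10 (9.09%, 5.01 to 15.9). Among triples, 16 had 3 shared peaks, 33 had 2, 29 had 1 and 10 had 0. Among runs of 4, 1 had 4 shared peaks, 4 had 3, 6 had 2 and 4 had 1. Among runs of 5, 1 had all 5 shared, 2 had 4, 1 had 3 and 2 had 2, and the run of 6 had 3. Neighbouring peaks within runs were alike in being shared or not in 128 of 250 cases (51.2%, 45.0 to 57.3). Under 2 kb apart, only 1 peak was shared in 23 of 50 couples in runs and 46 of 75 pairs outside runs. At 2 to 5 kb these counts were 31 of 67 and 78 of 162. At 5 to 8 kb they were 29 of 56 and 64 of 137, and beyond 8 kb 39 of 77 and 80 of 162. The value for unrelated neighbours was not computed. In 38 of the 67 runs with 2 or more shared peaks, the shared peaks reached from end to end, and in 13 they covered under 50% of the centre-to-centre length. The 38 include the 18 runs with every peak shared, in which this holds by definition. Triples with 3, 2, 1 and 0 shared peaks had median lengths of 12.7, 12.4, 12.53 and 10.7 kb. Their ranges overlapped widely, at 2.64 to 22.6, 3.35 to 23.6, 3.97 to 21.4 and 5.49 to 17.6 kb.

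Of 4 classes of run peaks by distance to the nearest neighbour, the closest had the lowest share. Run peaks with their nearest neighbour under 2 kb away were shared in 44.1% of cases (34.4 to 54.2, 41 of 93). At 2 to 5 kb the share was 62.7% (53.4 to 71.2, 69 of 110), at 5 to 8 kb 50.6% (39.7 to 61.5, 39 of 77) and beyond 8 kb 61.3% (50.3 to 71.2, 49 of 80). These shares did not follow the distance in order, and their intervals overlapped. Outside runs, peaks with a neighbour under 2 kb away were shared in 52.0% (44.1 to 59.8, 78 of 150), an interval that holds the 55.8% of the whole list. The lowest class there was 5 to 8 kb, at 48.2% (42.3 to 54.1, 132 of 274), an interval below 55.8%. At 2 to 5 kb the share outside runs was 53.1% and beyond 8 kb 59.3%. A low share was thus neither particular to runs nor to the closest class. Outer peaks of runs were shared in 58.2% (51.6 to 64.5, 128 of 220) and inner peaks in 50% (41.8 to 58.2, 70 of 140), with overlapping intervals. In triples, the middle peak was shared in 45.5% (35.5 to 55.8, 40 of 88), the peak at the lower coordinate in 58.0% (47.5 to 67.7) and that at the higher coordinate in 59.1% (48.6 to 68.8). A further division was made after these values were seen. The peak that lay apart from the closer couple of a triple was shared in 63.6% (53.2 to 72.9, 56 of 88), and the peaks of the closer couple in 49.4% (42.1 to 56.8, 87 of 176). These intervals overlap, and both hold the 55.8% of the whole list. The 2 shares come from the same 88 triples and are not independent. Of these 88 closer couples, 24 had both peaks shared, 39 had 1 and 25 had 0.

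**Figure D2:**
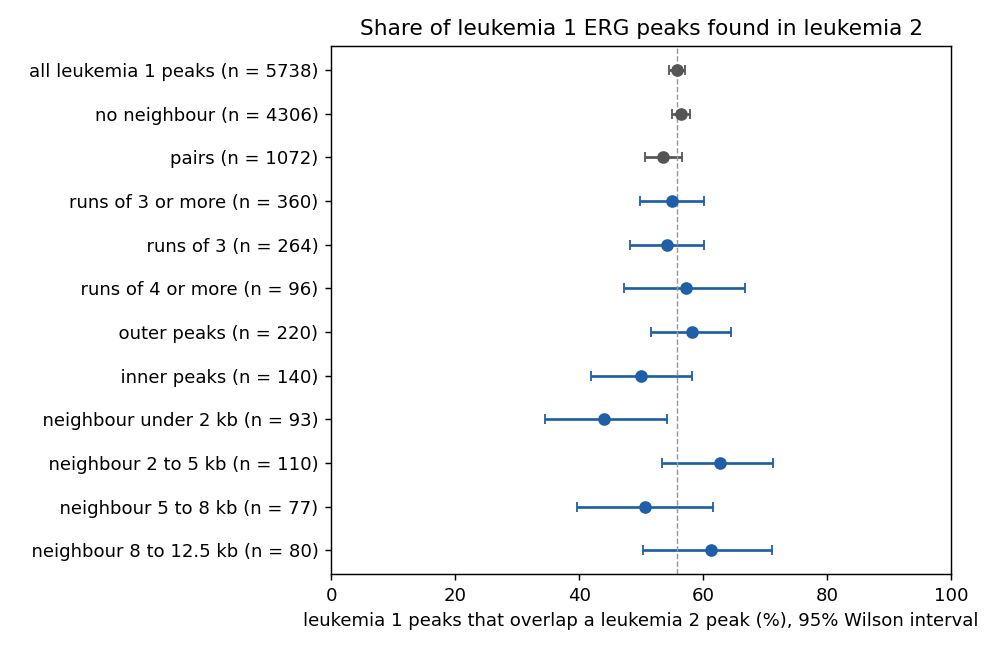
Percentage of leukemia 1 ERG peaks that overlap a leukemia 2 peak, with 95% Wilson intervals, for the whole list, for peaks with no neighbour and in pairs (grey), and for peaks of runs and their subdivisions (blue). Run peaks lie at 55.0% beside 55.8% for the list (dashed line); among the subdivisions shown, only the interval of run peaks with a neighbour under 2 kb away, 34.4 to 54.2%, does not reach that line.

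At shared run peaks the centres of the lists almost coincided. They were a median of 9 bp apart over the 198 shared run peaks, with quartiles of 4 and 27.8 bp, against 12 bp and quartiles of 5 and 32 bp over all 3201 shared peaks. Of the 162 unshared run peaks, 7 had a leukemia 2 centre within 1 kb (4.32%, 2.11 to 8.65) and 121 within the joining distance (74.7%, 67.5 to 80.8). Outside runs these shares were 1.64% and 14.1% of 2375 unshared peaks. A run peak has other leukemia 1 peaks close by, any of which may be shared, so the nearness within the joining distance follows in part from the rule.

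The runs contained few leukemia 2 peaks that leukemia 1 lacked. Of 207 leukemia 2 peaks that touched a run, 198 matched a run peak (95.7%, 91.9 to 97.7) and 9 did not, each of the 9 in a different run. In the whole leukemia 2 list 85.3% of 3751 peaks had a match, but the bounds of a run are themselves leukemia 1 peaks, so these shares cannot be set against each other. For 6 of these 9 peaks the nearest leukemia 1 centre was 0.467 to 0.954 kb away, and for the other 3 it was 1.13, 3.80 and 5.42 kb away. Leukemia 2 had 0 peaks in 10 runs, 1 in 30, 2 in 42, 3 in 21, 4 in 5 and 5 in 2.

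Applied to the leukemia 2 list, the same rule gave 43 runs with 137 of its 3751 peaks (3.65%, 3.10 to 4.30). Of the 110 runs of leukemia 1, 30 met a leukemia 2 run (27.3%, 19.8 to 36.3), and these were met by 30 of the 43 leukemia 2 runs (69.8%, 54.9 to 81.4). Of all leukemia 2 peaks 85.3% overlapped a leukemia 1 peak, so runs of the lists would also often meet at that share. The number expected to meet was not computed, and these counts are not read as a trait of the runs. The leukemia 2 list is the shorter one, which leaves room for fewer runs, so the numbers of runs in the leukemias cannot be compared as a property of the leukemias.

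The run with most peaks, chr10:79603961-79635892 on chromosome 10, was found in leukemia 2 in part. It spanned 31.9 kb with gaps of 7.54, 9.58, 1.23, 5.33 and 7.85 kb, and its 3 peaks at the higher coordinates were shared while the 3 at the lower coordinates were not. A leukemia 2 peak without a match lay 0.954 kb from the first peak. The centres of the 3 shared peaks were a mean of 4.67 bp apart between the leukemias.

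Of the 6 runs of 5 peaks, 4 had 3 or more peaks shared. On chromosome 18, chr18:60661916-60685979 had all 5 peaks shared over 24.1 kb, with gaps of 4.72, 10.1, 6.12 and 2.73 kb. On chromosome 11, chr11:94850970-94873808 had gaps of 1.04, 6.91, 2.92 and 11.6 kb over 22.8 kb and lacked only its second peak in leukemia 2, which sat 1.04 kb from the first. The run chr5:117583399-117599712 on chromosome 5 was the shortest of the 5-peak runs at 16.3 kb, with gaps of 2.52, 2.63, 5.88 and 4.88 kb. Its last peak but one alone was not shared, and a leukemia 2 peak without a match lay 0.877 kb before its middle peak. The chromosome 9 run chr9:107444052-107474301 extended over 30.2 kb with gaps of 9.25, 3.28, 8.70 and 8.62 kb, and its second and last peaks were not shared. Beside that last peak, 0.748 kb away, leukemia 2 had a peak of its own. The other two runs were shared at 2 peaks each. In chr11:115936818-115955423 on chromosome 11 (gaps of 1.37, 1.38, 8.59 and 6.86 kb over 18.6 kb), the first 3 peaks were within 1.38 kb of each other in turn, and of them only the middle one was shared, together with the last peak of the run. In chr17:28344616-28369759 on chromosome 17 (gaps of 4.32, 5.50, 6.58 and 8.34 kb over 25.1 kb) the second and the middle peaks were shared.

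Runs of 4 peaks ranged from 5.43 to 28.8 kb. Only chr11:87550825-87568449 on chromosome 11 was shared at all 4 peaks, over 17.6 kb with gaps of 12.0, 2.27 and 2.91 kb, and the centres of the leukemias were a mean of 6.25 bp apart there. In chr11:68908347-68913779, 3 of the 4 peaks were shared over 5.43 kb, with gaps of 2.03, 1.75 and 1.25 kb, the most compact of the 15. The third peak was the unshared one in that run, and also in chr7:26465403-26475004 (9.60 kb, gaps of 3.14, 3.19 and 2.87 kb) and chr11:120434559-120460074 (25.5 kb, gaps of 8.05, 7.25 and 9.81 kb). In chr7:16859117-16880580 (21.5 kb, gaps of 1.59, 11.3 and 8.21 kb) it was the first peak, which lay 1.59 kb from its shared neighbour. The 4 runs with 3 shared peaks thus kept both outer peaks in 3 cases. Among them, chr7:26465403-26475004 also held a leukemia 2 peak without a match, 1.13 kb beyond its first peak.

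In 6 runs, 2 of 4 peaks were shared. Alternating peaks, the second and the last, were shared in chr3:146345424-146363525 (18.1 kb, gaps of 4.05, 12.483 and 1.17 kb), in chr7:29164203-29177910 (13.7 kb, gaps of 2.90, 4.42 and 5.98 kb) and in chr15:62038070-62052930 (14.9 kb, gaps of 3.34, 4.31 and 6.81 kb). The 2 peaks at the lower coordinates were shared in chr9:64637152-64649038 (11.9 kb, gaps of 3.66, 0.942 and 6.89 kb) and chr13:59915280-59942525 (27.2 kb, gaps of 9.01, 12.2 and 5.64 kb). The inner couple was shared in chr3:137615929-137644769, the longest run of 4 at 28.8 kb with gaps of 4.90, 11.2 and 12.3 kb, where a leukemia 2 peak without a match lay between the upper peak of that couple and the last peak, 5.42 kb from the latter. No run of 4 kept only its 2 upper or only its 2 outer peaks.

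A single peak of 4 was shared in the remaining 4 runs of this size. It was the last peak in chr1:40472138-40494596 (22.5 kb, gaps of 3.21, 10.7 and 8.13 kb) and chr8:122999392-123018984 (19.6 kb, gaps of 11.4, 1.08 and 6.69 kb). It was the third in chr11:77599683-77616447 (16.8 kb, gaps of 5.57, 1.504 and 9.29 kb) and the second in chr11:115569694-115579355 (9.66 kb, gaps of 4.46, 3.93 and 0.868 kb). In all 4 the first peak was absent from the leukemia 2 list, and 3 of the 4 also held a gap under 2 kb. Over all 110 runs, 43 held such a gap, and a link with sharing was not tested.

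**Figure D3:**
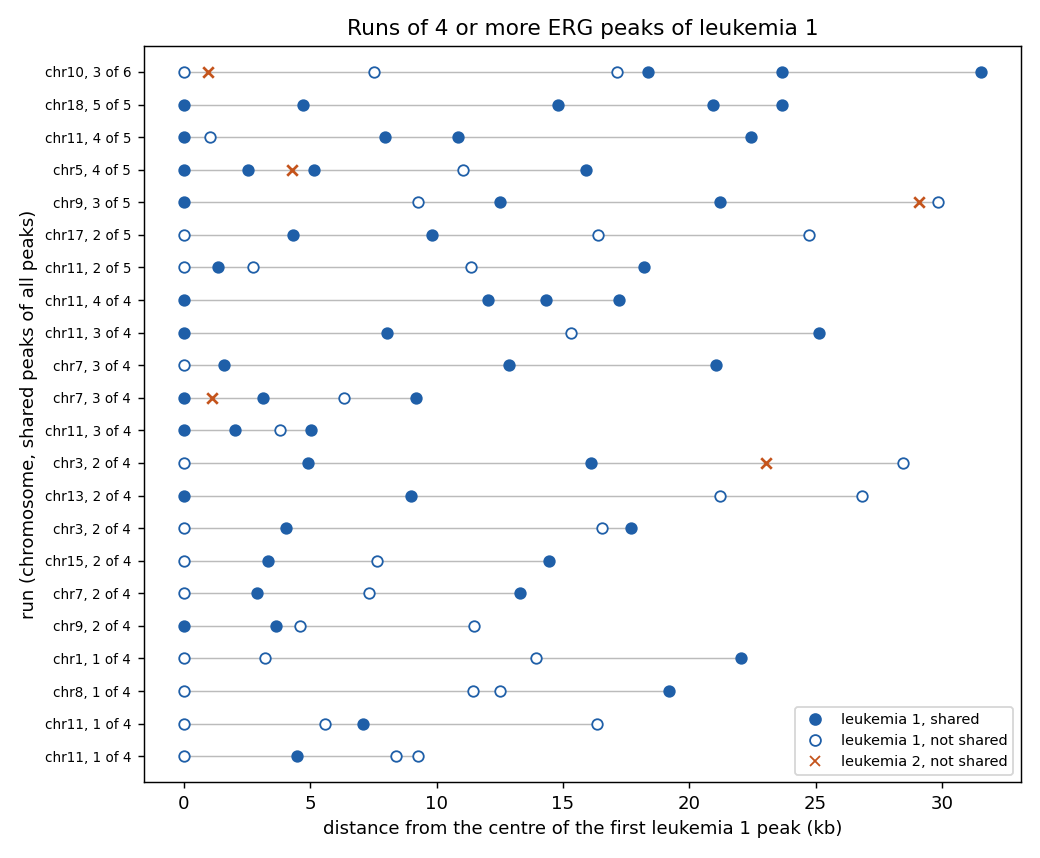
Each row is 1 of the 22 runs of 4 or more leukemia 1 ERG peaks, with distance in kb from the centre of its first peak; filled circles are peaks shared with leukemia 2, open circles leukemia 1 peaks that are not, and crosses leukemia 2 peaks without a match. All peaks are filled in 2 rows, the chromosome 18 run of 5 and a chromosome 11 run of 4, and no row is without a filled circle.

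Triples with all 3 peaks shared numbered 16, on 12 chromosomes, from 2.64 to 22.6 kb. The 3 most compact lay under 4 kb. The run chr14:47789473-47792110 was the shortest run of all at 2.64 kb, with gaps of 0.974 and 1.26 kb and centres a mean of 5 bp apart between the leukemias. The run chr11:100869367-100872126 followed at 2.76 kb with gaps of 1.09 and 1.27 kb and a mean centre distance of 35.3 bp. The run chr8:87223806-87227705 measured 3.90 kb with gaps of 1.58 and 1.92 kb and a mean distance of 7.67 bp. In these the neighbouring centres were under 2 kb apart in both leukemias. The run chr5:116474325-116479500 spanned 5.18 kb with gaps of 2.29 and 2.48 kb, and leukemia 2 added a further peak just below it, so that its own run held 4. The run chr10:80841393-80847327 spanned 5.93 kb with gaps of 3.38 and 2.16 kb. The run chr13:101636232-101645429 spanned 9.198 kb with gaps of 7.23 and 1.57 kb. The other 10 fully shared triples were longer. The run chr4:135733831-135746141 had gaps of 2.02 and 9.89 kb over 12.3 kb, chr5:30287694-30300448 had 2.34 and 10.016 kb over 12.8 kb, and chr4:88510487-88524552 had 3.63 and 10.034 kb over 14.1 kb. In those 3, a close couple at the lower end was followed by a distant peak. The opposite order was found in chr19:6046820-6061400 (gaps of 10.9 and 3.30 kb over 14.6 kb) and chr17:34077141-34092957 (gaps of 11.2 and 4.27 kb over 15.8 kb). More even were chr8:124833202-124845913 (gaps of 5.62 and 6.69 kb over 12.7 kb), chr7:52379596-52393138 (gaps of 4.38 and 8.77 kb over 13.5 kb), chr6:117850679-117867079 (gaps of 5.90 and 10.1 kb over 16.4 kb), chr6:119327618-119346637 (gaps of 11.002 and 7.62 kb over 19.0 kb) and chr2:31971227-31993790, the longest at 22.6 kb with gaps of 12.3 and 9.81 kb. The smallest mean centre distances among these 16 were 4 bp in chr5:116474325-116479500, 4.33 bp in chr5:30287694-30300448 and 4.67 bp in chr6:119327618-119346637, where the leukemia 1 and leukemia 2 centres were nearly the same base pairs.

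Triples with 2 shared peaks were the most frequent kind, with 33 runs. The middle peak was the unshared one in 15 of them, the peak at the lower coordinate in 10 and that at the higher coordinate in 8. In these 15, leukemia 2 had a match at both outer peaks of the run and none at the middle one. Chromosome 11 held 22 of all 110 runs, and 48.3% of its leukemia 1 peaks were shared, beside 55.8% of the whole list. A difference from that background was not tested. Of the 15 triples with an unshared middle peak, 7 lay on chromosome 11. They were chr11:70452373-70468309 (15.9 kb, gaps of 8.32 and 7.21 kb), chr11:70577669-70584710 (7.04 kb, 1.93 and 4.71 kb), chr11:79894556-79915154 (20.6 kb, 8.10 and 12.1 kb), chr11:96796354-96809563 (13.2 kb, 6.02 and 6.79 kb), chr11:96839004-96854664 (15.7 kb, 10.1 and 5.14 kb), chr11:100943731-100956970 (13.2 kb, 4.64 and 8.20 kb) and chr11:107329421-107341022 (11.6 kb, 2.47 and 8.73 kb). In chr11:70452373-70468309, leukemia 2 had a peak of its own 0.467 kb from the unshared middle peak, just beyond the limit of overlap, and so formed a run of 3 there as well. In chr11:79894556-79915154, the shared outer peaks were a mean of 0.5 bp apart between the leukemias. Elsewhere the middle peak was missing in chr5:115223376-115243102 (19.7 kb, gaps of 11.2 and 8.10 kb), chr5:143656727-143667883 (11.2 kb, 1.15 and 9.61 kb), chr6:56863363-56869696 (6.33 kb, 4.16 and 1.78 kb), chr6:143781614-143790853 (9.24 kb, 1.89 and 6.95 kb), chr7:52959992-52973608 (13.6 kb, 10.6 and 2.63 kb), chr7:134324283-134339834 (15.6 kb, 3.15 and 12.0 kb), chr14:76228601-76245256 (16.7 kb, 5.36 and 10.9 kb) and, on the X chromosome, chrX:45491772-45507169 (15.4 kb, 4.90 and 10.1 kb). A gap under 2 kb was present in 4 of the 15.

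The peak at the lower coordinate was the unshared one in chr1:167694130-167712445 (18.3 kb, gaps of 7.44 and 10.5 kb), chr2:129040633-129053762 (13.1 kb, 11.4 and 1.31 kb), chr2:154429416-154441874 (12.459 kb, 5.64 and 6.42 kb), chr4:134470716-134487101 (16.4 kb, 8.59 and 7.40 kb), chr8:87183729-87188274 (4.55 kb, 1.71 and 2.44 kb), chr8:122892747-122896091 (3.35 kb, 1.06 and 1.89 kb), chr9:110560346-110571441 (11.1 kb, 8.03 and 2.66 kb), chr11:49055010-49059411 (4.40 kb, 2.46 and 1.54 kb), chr13:102310486-102322855 (12.4 kb, 7.26 and 4.71 kb) and chr14:24959790-24968512 (8.72 kb, 2.58 and 5.74 kb). The first of these, chr1:167694130-167712445, missed a full match narrowly, as a leukemia 2 centre lay 0.412 kb from its unshared peak and leukemia 2 had a run of 3 there. The run chr8:122892747-122896091 was also compact, and its unshared peak lay 1.06 kb from a shared one. In chr11:49055010-49059411 the shared centres were a mean of 187 bp apart between the leukemias, the widest mean distance of any run. The peak at the higher coordinate was the unshared one in chr1:136415120-136423708 (8.59 kb, gaps of 2.53 and 5.66 kb), chr6:88202085-88205791 (3.71 kb, 1.94 and 1.36 kb), chr7:16531273-16540842 (9.57 kb, 7.81 and 1.36 kb), chr8:125224680-125243965 (19.3 kb, 11.2 and 7.74 kb), chr10:127930761-127942152 (11.4 kb, 4.89 and 6.11 kb), chr13:60839227-60847093 (7.87 kb, 5.42 and 2.05 kb), chr16:3872259-3895820 (23.6 kb, 12.2 and 10.988 kb) and chr18:78043408-78050703 (7.30 kb, 1.75 and 5.15 kb). In this group chr6:88202085-88205791 was among the 5 shortest of all triples and chr16:3872259-3895820 was the longest. At chr8:125224680-125243965, leukemia 2 had a further peak below the run and so a run of 3 of its own.

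**Figure D4:**
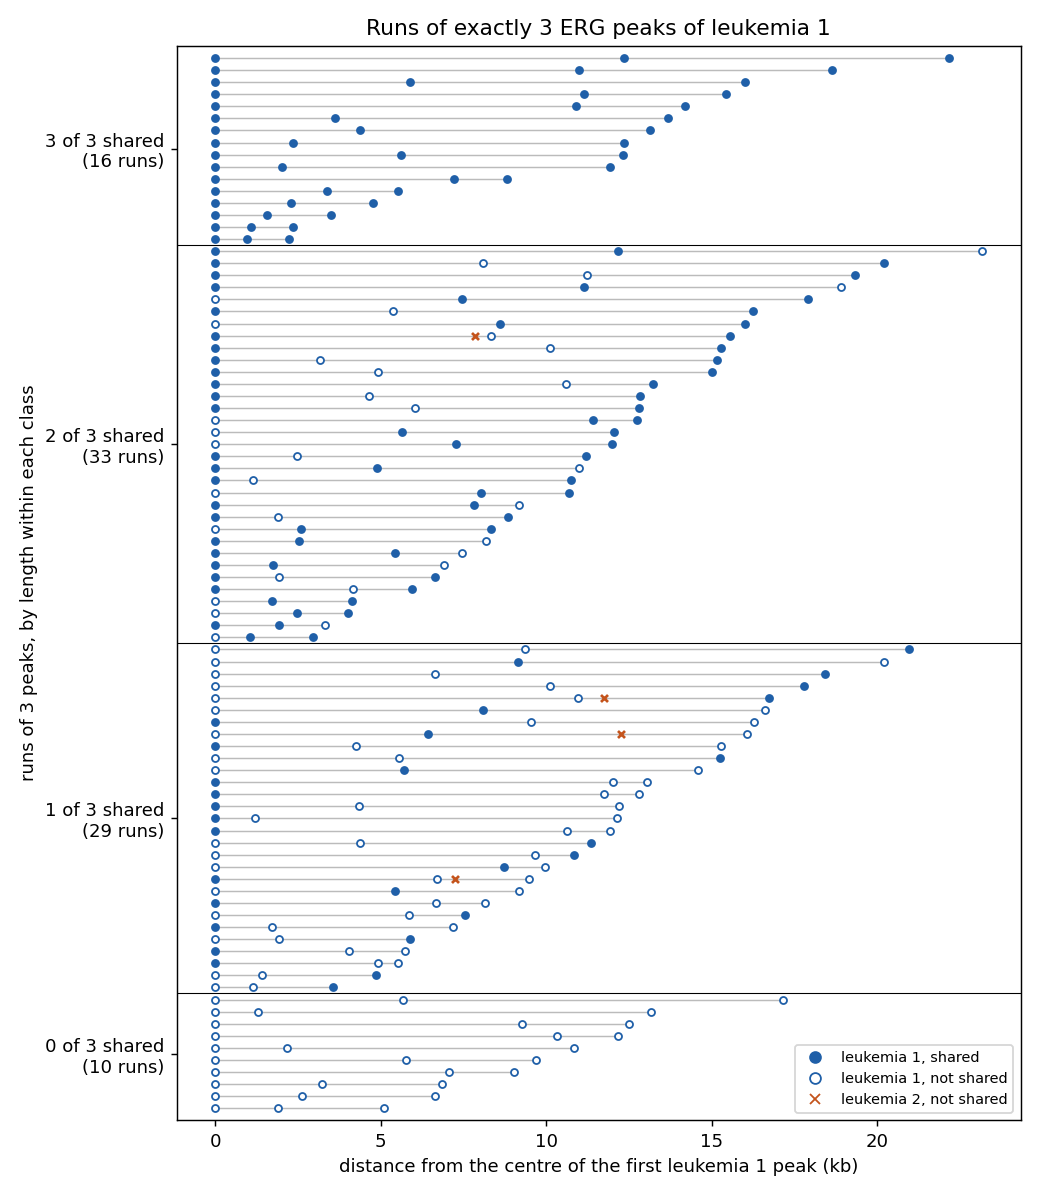
Each row is 1 of the 88 runs of exactly 3 leukemia 1 ERG peaks, grouped by the number of peaks shared with leukemia 2 and ordered by length, with distance in kb from the centre of the first peak; symbols are filled for shared, open for unshared and crossed for leukemia 2 peaks without a match. The 4 groups of 16, 33, 29 and 10 runs overlap in length, with medians of 12.7, 12.4, 12.53 and 10.7 kb.

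A single shared peak was found in 29 triples, at the lower end in 12, in the middle in 6 and at the upper end in 11. Over all 110 runs, 43 held a gap under 2 kb, as did 5 of the 11 triples that kept only the upper peak. A link between close gaps and sharing was not tested. In 8 of the 12 runs that kept the lower peak, a gap was under 2 kb. In 6 of those 8 the unshared couple at the upper end was the close one: chr1:174431060-174444498 (13.4 kb, gaps of 12.0 and 1.01 kb), chr2:132073360-132079269 (5.91 kb, 4.93 and 0.580 kb), chr4:94742401-94750946 (8.55 kb, 6.66 and 1.49 kb), chr4:116792939-116799079 (6.14 kb, 4.04 and 1.70 kb), chr5:124469332-124482528 (13.2 kb, 11.7 and 1.07 kb) and chr8:87490635-87502959 (12.3 kb, 10.6 and 1.29 kb). The gap of 0.58 kb in chr2:132073360-132079269 was the smallest between any 2 peaks of the runs. In the other two, chr10:92532091-92544620 (12.530 kb, 1.20 and 10.9 kb) and chr11:74643900-74651470 (7.57 kb, 1.71 and 5.46 kb), the shared peak itself belonged to the close couple. The remaining 4 were chr9:108462444-108472313 (9.87 kb, 6.69 and 2.78 kb), chr9:121207864-121223550 (15.7 kb, 4.25 and 11.041 kb), chr11:109406583-109419187 (12.6 kb, 4.34 and 7.87 kb) and chr11:115264859-115281537 (16.7 kb, 9.53 and 6.75 kb). A leukemia 2 peak without a match lay 0.558 kb from the middle peak of chr9:108462444-108472313.

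Only the upper peak was shared in chr1:133898564-133904839 (6.28 kb, gaps of 1.93 and 3.95 kb), chr1:158916324-158921581 (5.26 kb, 1.41 and 3.45 kb), chr2:167318185-167336366 (18.2 kb, 10.1 and 7.66 kb), chr3:89215723-89234526 (18.8 kb, 6.64 and 11.8 kb), chr8:130029088-130040336 (11.2 kb, 9.66 and 1.19 kb), chr9:34913450-34930579 (17.1 kb, 10.957 and 5.77 kb), chr9:92169292-92184934 (15.6 kb, 5.56 and 9.68 kb), chr11:69727279-69735232 (7.95 kb, 5.85 and 1.70 kb), chr15:78754035-78765794 (11.8 kb, 4.38 and 6.98 kb), chr17:25960372-25981734 (21.4 kb, 9.36 and 11.6 kb) and chr19:5487890-5491857 (3.97 kb, 1.13 and 2.44 kb). The shortest and the longest of the 29 triples with 1 shared peak, chr19:5487890-5491857 and chr17:25960372-25981734, were both of this kind. In chr9:34913450-34930579 a leukemia 2 peak without a match lay 0.787 kb from the unshared middle peak. The middle peak alone was shared in chr4:43038448-43053418 (14.971 kb, gaps of 5.72 and 8.86 kb), chr6:83058878-83075337 (16.5 kb, 6.42 and 9.64 kb), chr7:87397750-87414767 (17.0 kb, 8.10 and 8.52 kb), chr8:86722484-86732071 (9.59 kb, 5.44 and 3.75 kb), chr11:69475885-69486254 (10.4 kb, 8.73 and 1.24 kb) and chr19:46565127-46585727 (20.6 kb, 9.15 and 11.1 kb). A gap under 2 kb was present in 1 of these 6, chr11:69475885-69486254, and chr6:83058878-83075337 also held a leukemia 2 peak 3.80 kb from its last peak.

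No peak was shared in 10 triples, from 5.49 to 17.6 kb, and in none of them did leukemia 2 have a peak of its own within the run. Leukemia 2 was not far away in 3 of them. Its nearest centre was 6.74 kb from chr11:4873530-4887077 (13.5 kb, gaps of 1.29 and 11.9 kb), 17.2 kb from chr10:80157942-80164987 (7.05 kb, 2.63 and 4.01 kb) and 58.0 kb from chr13:55545947-55551433 (5.49 kb, 1.90 and 3.19 kb), the shortest of the 10. The other 7 lay over 100 kb from any leukemia 2 peak. That distance was 179 kb for chr5:115037872-115045135 (7.26 kb, gaps of 3.23 and 3.63 kb), 203 kb for chr12:101734388-101747284 (12.9 kb, 9.25 and 3.24 kb), 336 kb for chr17:7368287-7378379 (10.1 kb, 5.77 and 3.93 kb) and 402 kb for chr8:123694497-123712046 (17.6 kb, 5.68 and 11.5 kb). It was 446 kb for chr1:172097909-172107330 (9.42 kb, gaps of 7.07 and 1.95 kb), 460 kb for chr5:121026667-121037893 (11.2 kb, 2.17 and 8.66 kb) and 810 kb for chr12:25318622-25331200 (12.6 kb, 10.3 and 1.84 kb). Both runs of chromosome 12, chr12:25318622-25331200 and chr12:101734388-101747284, were among these 10, as were 2 of the 8 runs of chromosome 5. Chromosomes 1, 8, 10, 11, 13 and 17 had 1 each. Of all leukemia 1 peaks, 54.4% were shared on chromosome 12 and 59.5% on chromosome 5. A difference between chromosomes was not tested.

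By chromosome, the share of run peaks found in leukemia 2 rested on few peaks. On chromosome 11 it was 56.0% (44.7 to 66.7, 42 of 75), beside 48.3% (44.2 to 52.4, 271 of 561) for all leukemia 1 peaks of that chromosome. On the other chromosomes together it was 54.7% (48.9 to 60.4, 156 of 285), beside 56.6% for all their leukemia 1 peaks. On chromosome 11, 2 of 22 runs had every peak shared (9.09%, 2.53 to 27.8), against 16 of 88 elsewhere (18.2%, 11.5 to 27.5), with overlapping intervals. Among chromosomes with at least 20 run peaks, the share was lowest on chromosome 1, with 8 of 22 (36.4%, beside 53.5% of all its leukemia 1 peaks). It was highest on chromosome 7, with 18 of 27 (66.7%, beside 60.4%). No run was complete on chromosomes 1 and 9, nor on chromosomes 3, 12, 15, 16 and X, which had fewer run peaks. On chromosome 9, 11 of 24 run peaks were shared (45.8%, beside 54.9%). Intervals were not computed for the shares of these chromosomes.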

How the data were processed

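ERG ChIP-seq peak lists of 2 leukemias, 1 library each, were used, and the IgG libraries did not enter. Reads were aligned with Bowtie to mm9, per the submitters' processing notes, and the sources used here do not give the peak caller, its threshold or the use of IgG. The deposited lists hold the chromosome and both end positions of each peak, every interval being 400 bp wide, with no other value such as a score or height. The depth behind a peak is unknown. Each list was assigned to the ERG sample whose title its name carries, apart from the spelling of leukemia.

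Centres were taken as the midpoint rounded down. Leukemia 1 peaks were joined into runs where neighbouring centres lay within the joining distance, which admitted gaps of up to 12483 bp, and runs of 3 or more were kept. Shared peaks overlap a peak of the other list by 1 bp or more. Shares have 95% Wilson intervals. The runs, limits and groupings were chosen with earlier results of these data known. Every run is named; runs of 4 or more are described peak by peak, and the shortest, the longest, the best matched and the unmatched triples singly. The gene and promoter tables at hand are for GRCm38.p6, and positions were not moved between builds, so the planned description by gene, promoter and motif was not made. Alternatives were other gap limits, gaps between peak edges, runs of 4 or more, other overlap rules and the omission of chromosome 11. The functions were tested on simulated data. Python 3.11.15, NumPy 2.4.6, SciPy 1.17.1 and matplotlib 3.10.9 were used.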

Additional observations from a re-analysis of the deposited data

How the results depend on the processing

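The share of run peaks found in leukemia 2, 55.0% in the main description, ran from 53.6% to 57.5% over the 10 alternatives. All lay within the interval of the main share, but the alternatives largely reuse the same peaks. With an overlap of at least 200 bp, run peaks were at 54.2% and all leukemia 1 peaks at 54.9%. With centres within 500 and 1000 bp, run peaks were at 55.6% and 56.9%, beside 56.1% and 56.6%. Without chromosome 11 the shares were 54.7% and 56.6%. The numbers of runs and their sizes follow from the gap limit. With limits of 5, 10, 15 and 25 kb in place of the joining distance, there were 28, 74, 144 and 252 runs (110 in the main description) with 87, 242, 478 and 880 peaks (360). Their median length was 5.52, 9.77, 16.1 and 24.3 kb (13.0 kb) and the median gap 2.29, 4.31, 6.55 and 9.57 kb (5.53 kb). Every peak was shared in 7, 11, 22 and 31 runs (18), no peak in 3, 7, 13 and 20 (10), and 9, 18, 37 and 69 runs met a leukemia 2 run by the same limit (30). With gaps measured between peak edges the median length was 13.6 kb and the median gap 5.67 kb. With 4 or more peaks in a run, 22 runs with 96 peaks were left, of which 2 had every peak shared and 0 had none shared, with a median length of 19.1 kb and a median gap of 5.42 kb. Without chromosome 11 these medians were 12.8 and 5.62 kb. Other overlap rules (at least 200 bp, centres within 500 or 1000 bp) gave 18 to 20 runs with every peak shared and 10 with none. Alternatives based on a peak score or on mm9 genes could not be computed. No paired analysis was possible because each leukemia is represented here by 1 ERG library. With depth and calling threshold unknown, a peak missing from either list is not evidence of an unbound site.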

Other observations

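By the same rule, 13 of the 43 runs of leukemia 2 met no run of leukemia 1. Leukemia 1 had 1 or 2 peaks in each of these 13, so each was a place where leukemia 1 also had a peak but not 3. In 4 of them only 1 of the 3 leukemia 2 peaks was shared: chr11:116398011-116410962 (13.0 kb), chr11:117690631-117693715 (3.08 kb), chr17:5321882-5331481 (9.60 kb) and chr17:5794264-5802397 (8.13 kb). The pair on chromosome 17 lay in the same part of that chromosome. The other 9 had 2 shared peaks each. Of the peaks in all 43 leukemia 2 runs, 81.0% (95% Wilson interval 73.6 to 86.7, 111 of 137) overlapped a leukemia 1 peak, against 85.3% of all leukemia 2 peaks, and every peak was shared in 21 of the 43 runs.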
